A study of Mus musculus with 6 samples.

Results

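The genes that sense stress in the endoplasmic reticulum (ER), the transcription factor gene that one of the sensors activates, and the kinases of the translation factor eIF2alpha were followed in mouse small intestine after ischemia/reperfusion (I/R). The set was chosen by name, as the members of these families, with earlier results of the data known: Ern1, Ern2, Xbp1, Atf6, Atf6b, Eif2ak1, Eif2ak2, Eif2ak3 and Eif2ak4. All 9 were found in the RNA sequencing table, among 12327 annotated genes and 61 transcripts without an annotated gene, and all 9 passed the filter on low values, which left 12006 of these for testing. The I/R group held 3 samples (replicates 6, 7 and 9) in which the artery that feeds the small intestine was blocked and then reopened. The sham group held 3 samples (replicates 1, 3 and 5) from mice that had the same operation without the blockage. All were C57BL/6 mice aged 8 weeks, with no transgene or drug in either group. The labels do not say that each sample is a separate mouse, and the p-values then cover only sample-to-sample spread, which may be technical.

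When unfolded proteins build up in the ER, the sensors in its membrane start the unfolded protein response. IRE1alpha (Ern1), found in most cells, and IRE1beta (Ern2), found mainly in the mucus-secreting epithelium of gut and airway, are RNA-cutting enzymes that remove a short intron from Xbp1 RNA, so that a strong transcription factor is made. ATF6 (Atf6) and its relative ATF6beta (Atf6b) travel to the Golgi, are cut there, and enter the nucleus to switch on chaperone genes. PERK (Eif2ak3) is the sensor among the eIF2alpha kinases and slows protein synthesis. The other kinases of this family answer to other signals: HRI (Eif2ak1) to lack of heme and to mitochondrial stress, PKR (Eif2ak2) to double-stranded RNA, and GCN2 (Eif2ak4) to lack of amino acids. Much of this pathway acts through phosphorylation, cutting and splicing, which RNA levels do not report.

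The intron that IRE1 removes is shown because it marks what the deposited values can and cannot tell about Xbp1. It was located in the GENCODE M21 transcripts as a pair of the loop motif CNGCAGN, known to be cut behind its G, with the cuts 26 bases apart. The stretch lies in coding sequence at chr11:5524259-5524324 (GRCm38, plus strand), and the capitals mark the 26 bases at 5524279 to 5524304.
Xbp1 IRE1 site: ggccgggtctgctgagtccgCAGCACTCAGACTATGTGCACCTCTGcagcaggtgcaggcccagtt
All 3 Xbp1 transcripts in the table, Xbp1-201, Xbp1-203 and Xbp1-204, contain these 26 bases. The values therefore measure total Xbp1 RNA and give no share of the spliced form.

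A second short sequence is shown for Eif2ak2, which interferon is known to induce. Promoter windows from RefSeq (GRCm38.p6, 250 bases before to 50 bases from the start site) matched 7 of the 9 genes, in 8 windows. Atf6 and Ern2 had no match. The motifs searched on both strands were the ER stress element (CCAAT and CCACG with 9 bases between), the UPR element core TGACGTG, and the interferon-response (ISRE) core (GAAA and GAAA with 2 bases between). The interferon-response core was found in Eif2ak2 alone among the 7, against 3.44% of all 32851 windows. The ER stress element (0.119% of all windows) and the UPR element core (2.01%) were in none of the 8 windows. The stretch shown lies at chr17:78882535-78882564 (GRCm38, minus strand). The capitals mark the motif at 78882545 to 78882554, whose first base is 18 bases downstream of the start site.
Eif2ak2 ISRE core: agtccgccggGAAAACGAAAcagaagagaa

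The libraries did not separate cleanly by group. Across genes, log2(FPKM + 1) correlated between libraries with r from 0.891 to 0.935 (FPKM are fragment counts scaled to transcript length and library size). Sham replicate 1 was nearer to I/R replicates 6 and 7 (r = 0.924 and 0.920) than to sham replicates 3 and 5 (r = 0.909 and 0.906). I/R replicate 9 was nearer to sham replicates 3 and 5 (r = 0.916 and 0.918) than to I/R replicates 6 and 7 (r = 0.905 and 0.912). The tissue label fitted its markers, since all 12 enterocyte markers were measured, against 3 of 6 liver and 1 of 8 pancreas markers. Summed smooth muscle markers spanned 30.7 to 839 FPKM in I/R and 131 to 624 FPKM in sham libraries, and summed Paneth cell markers spanned 106 to 325 FPKM in I/R and 86.3 to 2365 FPKM in sham libraries. For this reason many differences are also given as obtained when single libraries were left out.

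The comparison of I/R with sham asked whether the stress sensor and kinase genes differ in RNA level in injured intestine. None of the 9 genes passed limma's test over all genes at an adjusted p of 0.05 (Benjamini-Hochberg), and 0 of 9 had an unadjusted limma p below 0.05. Over all 12006 genes, 0.0333% passed the adjusted threshold (0.0167% higher and 0.0167% lower in I/R) and 8.94% the unadjusted one (5.56% higher and 3.38% lower). The mean was higher in I/R for 5 genes (Xbp1 and the 4 kinases) and lower for 4 genes (Ern1, Ern2, Atf6 and Atf6b). The adjusted p ran from 0.584 to 0.965. Across all genes 62.6% of log2 fold changes were above 0 and their median was 0.12, a shift that median-ratio scaling between libraries brought to 0.0078, so each value is to be read against 0.12. The median of the 9 was 0.04. In bulk tissue, fewer cells of a type and less RNA per cell cannot be told apart.

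**Figure D1:**
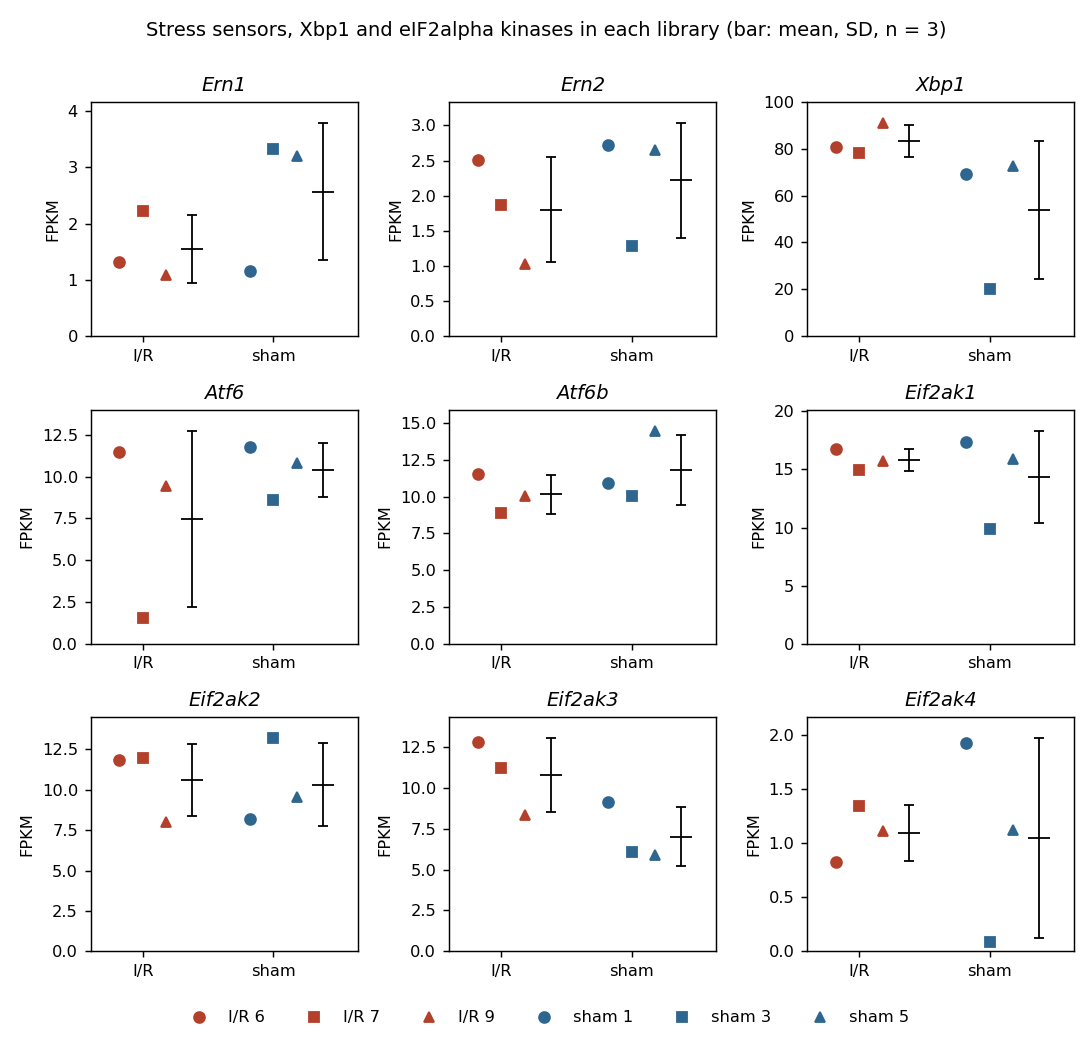
FPKM (y axis, from 0) of each gene in the 3 I/R libraries (red, left) and the 3 sham libraries (blue, right), with the marker shape giving the replicate and the black bar the mean and SD (n = 3). Only for Xbp1 do all I/R points (78.2 to 91.0 FPKM) lie above all sham points, and single libraries stand low for Xbp1 (sham replicate 3, 19.9 FPKM) and Atf6 (I/R replicate 7, 1.53 FPKM).

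Levels differed widely between these genes, and FPKM, being scaled to transcript length, allow a rough comparison. Only listed transcripts are summed: 3 of 4 annotated for Xbp1, 1 of 5 for Ern1, Atf6b and Eif2ak3, and 1 of 8 for Eif2ak4. Unlisted transcripts could alter the order. Xbp1 was the most abundant, at 68.6 ± 25 FPKM over the 6 libraries (SD), and its lowest library (19.9 FPKM) was above the highest Eif2ak1 library (17.3 FPKM). Eif2ak1 (15.1 ± 2.71 FPKM), Atf6b (10.97 ± 1.94 FPKM), Eif2ak2 (10.46 ± 2.17 FPKM), Atf6 (8.94 ± 3.83 FPKM) and Eif2ak3 (8.89 ± 2.75 FPKM) followed (SD, 6 libraries). The ranges of each neighbouring pair in this middle group overlapped. Eif2ak1 exceeded Atf6b in 5 of 6 libraries, while Atf6b and Eif2ak2 changed places from library to library. A clear gap followed, as every library had more Eif2ak3 (lowest 5.87 FPKM) than Ern1 (highest 3.33 FPKM). The IRE1 genes Ern1 (2.06 ± 1.03 FPKM) and Ern2 (2.01 ± 0.74 FPKM) were at like levels with overlapping ranges, and Eif2ak4 (1.07 ± 0.61 FPKM) was the lowest of the 9. The table gives no read counts and the low values fall in no whole-read steps, so depth is unknown and these low genes carry no counting interval.

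Among the sensors, Ern1 encodes IRE1alpha, the more widely expressed of the paired RNA-cutting sensors. It was at 1.32, 2.23 and 1.09 FPKM in replicates 6, 7 and 9 of the I/R group, against 1.16, 3.33 and 3.21 FPKM in sham replicates 1, 3 and 5. Sham replicates 3 and 5 were above every I/R library, whereas sham replicate 1 lay among them. The log2 fold change came to -0.44 ± 0.35 (SE; 95% interval -1.29 to 0.40; limma adjusted p = 0.687; exact permutation p = 0.3, where 0.1 is the smallest possible p for 3 against 3). Without sham replicate 1 it was -0.77 (limma adjusted p = 0.343). The groups were then bound to be apart, since only that sham library lay among the I/R values. Without sham replicate 3 or 5 the log2 fold change was -0.27 or -0.29.

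Ern2 encodes IRE1beta, known for its role in goblet cells. Its I/R libraries were at 2.51, 1.87 and 1.02 FPKM, against sham libraries at 2.73, 1.28 and 2.65 FPKM. Low and high values occurred in both groups, and I/R replicate 9 was the lowest of all. The log2 fold change was -0.20 ± 0.32 (SE; 95% interval -0.97 to 0.57; limma adjusted p = 0.836), and it was 0.02 without I/R replicate 9. Goblet cell markers gave a lower I/R mean in 9 of 10 genes, 0 of which passed over all genes, with a median log2 fold change of -0.42 against 0.12 over all genes. Together they summed to 1799 to 3250 FPKM in I/R and 2501 to 4771 FPKM in sham libraries. Muc2, the main secreted mucin, was at 325, 132 and 176 FPKM in I/R and 486, 289 and 505 FPKM in sham libraries. The defining factor Atoh1 was listed at 0 in 5 libraries. The part of goblet cell content in the Ern2 values was not tested.

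The ratio of Ern2 to Ern1 within a library, which does not depend on scaling between libraries, was 1.91, 0.84 and 0.94 in I/R and 2.34, 0.38 and 0.83 in sham libraries. On the log2 scale the groups differed by 0.34 with an exact permutation p of 0.8 (adjusted p = 1 over 4 ratios), so no difference was detectable. The sham spread alone (SD 1.31 on the log2 scale) was larger than that difference.

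Xbp1, the target of both IRE1 enzymes, is a factor known for building the secretory machinery in plasma, Paneth and goblet cells. Summed over its 3 listed transcripts, Xbp1 was at 80.8, 78.2 and 91.0 FPKM in replicates 6, 7 and 9 of the I/R group, against 69.1, 19.9 and 72.6 FPKM in sham replicates 1, 3 and 5. All I/R libraries lay above all sham libraries, though sham replicates 1 and 5 came close and sham replicate 3 stood far below. It was the only gene of the 9 whose groups did not overlap upward, and over all genes 10.6% were apart in that direction and 5.89% in the other. The ratio of group means was 1.55. The log2 fold change came to 0.82 ± 0.48 (SE; 95% interval -0.34 to 1.98; limma adjusted p = 0.625; exact permutation p = 0.1). Without sham replicate 3 it was 0.23 (limma adjusted p = 0.857), and the separation of groups was lost after median-ratio scaling.

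Plasma cells are rich in Xbp1, so their markers are given beside it. Of 10 markers 9 were measured, 6 with a higher and 3 with a lower I/R mean and 0 past the threshold. Together they summed to 264 to 471 FPKM in I/R and 117 to 432 FPKM in sham libraries, lowest in sham replicate 3. Jchain, the joining chain of secreted antibodies, was at 151, 107 and 381 FPKM in replicates 6, 7 and 9 of the I/R group and at 214, 62.3 and 105 FPKM in sham replicates 1, 3 and 5. Sham replicate 3 was the lowest library for Jchain and for Mzb1, another plasma cell marker, while the other 7 measured markers were lowest in other libraries. The part of plasma cell content in the Xbp1 values was not tested.

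Xbp1-201 was the main Xbp1 transcript in every library. Xbp1-201, of 5 exons and 2129 bases (chr11:5520659-5525893, plus strand), made up 81.6%, 88.6% and 93.7% of the gene's FPKM in I/R and 82.1%, 95.4% and 90.1% in sham libraries (exact permutation p = 0.7 for the share). It was at 65.9, 69.3 and 85.2 FPKM in I/R, against 56.7, 19.0 and 65.4 FPKM in sham libraries (limma adjusted p = 0.721 over 18216 transcripts, of which 0.0329% passed). Xbp1-204, a 4-exon transcript of 897 bases, was at 13.8, 7.59 and 4.78 FPKM in I/R and at 10.98, 0.520 and 4.96 FPKM in sham libraries. Its highest values were in I/R replicate 6 and sham replicate 1, the libraries that also lay near each other over all genes. Xbp1-203, of 3 exons, held at most 3.10% of the gene's FPKM in any library. Its share was lower in every I/R library (1.08% to 1.69%) than in every sham library (1.99% to 3.10%), with an exact permutation p of 0.1.

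**Figure D2:**
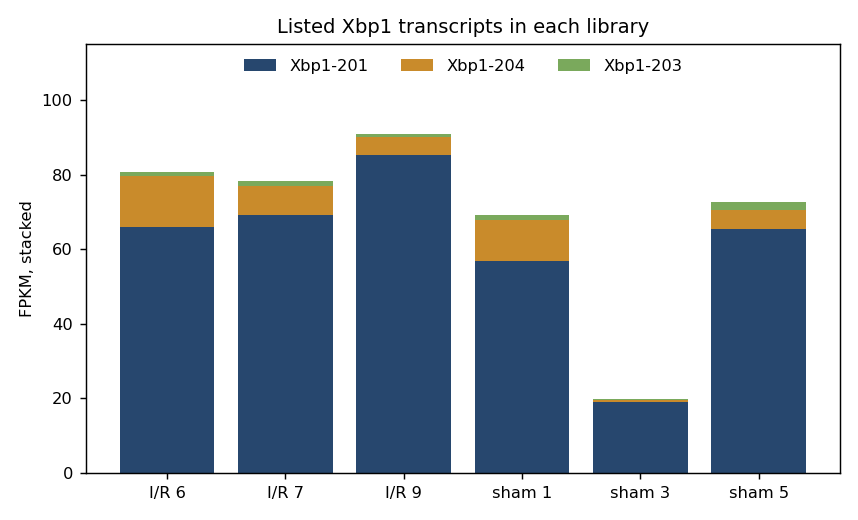
Stacked FPKM (y axis, from 0) of the 3 listed Xbp1 transcripts in each library, with I/R replicates on the left and sham replicates on the right. Xbp1-201 (dark blue) makes up 81.6% to 95.4% of every bar, and the bar of sham replicate 3 (19.9 FPKM in all) is far below the other 5.

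Xbp1 was also set against its processing enzymes within each library. The ratio of Xbp1 to the sum of Ern1 and Ern2 was 21.1, 19.1 and 43.0 in I/R, against 17.8, 4.33 and 12.4 in sham libraries. The lowest I/R ratio (19.1) and the highest sham ratio (17.8) were close. On the log2 scale the means were 4.69 ± 0.64 in I/R and 3.30 ± 1.06 in sham libraries (SD, n = 3 each), a difference of 1.39 with an exact permutation p of 0.1, the smallest possible, and an adjusted p of 0.4 over the 4 ratios. With single libraries left out the difference ran from 0.80 to 1.82, lowest without sham replicate 3.

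Atf6 encodes the sensor that is cut in the Golgi. It was at 11.5, 1.53 and 9.42 FPKM in replicates 6, 7 and 9 of the I/R group, against 11.8, 8.61 and 10.8 FPKM in sham replicates 1, 3 and 5. Apart from I/R replicate 7, the I/R values lay inside the sham range. The log2 fold change of -0.71 ± 0.60 (SE; 95% interval -2.15 to 0.72; limma adjusted p = 0.697) rested on that library and was 0.01 without it. Its only listed transcript, Atf6-201, has 16 exons and 7246 bases (chr1:170704674-170867771, minus strand).

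Atf6b encodes ATF6beta, a weaker activator that is cut in the same way. I/R libraries were at 11.5, 8.86 and 10.03 FPKM and sham libraries at 10.9, 10.02 and 14.5 FPKM. The groups overlapped, with sham replicate 5 the highest. The log2 fold change was -0.19 ± 0.21 (SE), and its 95% interval of -0.70 to 0.31 was the narrowest of the 9 genes (limma adjusted p = 0.765). Without sham replicate 5 the value was -0.046. The ratio of Atf6b to Atf6 was 1.00, 5.79 and 1.06 in I/R and 0.93, 1.16 and 1.34 in sham libraries (exact permutation p = 0.8, adjusted p = 1 over 4 ratios). After median-ratio scaling both ATF6 genes lay lower in every I/R library than in any sham library, but only narrowly. For Atf6b, I/R replicate 6 and sham replicate 1 were then almost equal. The log2 fold changes were then -0.85 for Atf6 and -0.33 for Atf6b (limma adjusted p = 0.659 and 0.637). The share of all genes apart downward after that scaling is not given.

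Of the eIF2alpha kinases, Eif2ak3 encodes PERK, the kinase that sits in the ER membrane. It was at 12.8, 11.2 and 8.31 FPKM in replicates 6, 7 and 9 of the I/R group, against 9.12, 6.06 and 5.87 FPKM in sham replicates 1, 3 and 5. The groups overlapped in a single pair, since I/R replicate 9 was below sham replicate 1. Its log2 fold change of 0.56 ± 0.25 (SE) had the smallest p among the 9 genes and a 95% interval of -0.05 to 1.16 (unadjusted limma p = 0.0653; limma adjusted p = 0.584; exact permutation p = 0.2). It stayed between 0.43 and 0.74 when single libraries were left out. Leaving out I/R replicate 9 or sham replicate 1 removes this only overlapping pair, so the groups were then bound to be apart. The limma adjusted p was then 0.626 and 0.322.

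Eif2ak1 encodes HRI, the heme-regulated kinase that is also high in red cell precursors, and it was the most abundant of the 4 kinases. It was at 16.8, 14.9 and 15.7 FPKM in I/R, against 17.3, 9.84 and 15.9 FPKM in sham libraries. Only sham replicate 3 stood apart, and without it the log2 fold change of 0.17 ± 0.24 (SE; 95% interval -0.41 to 0.74; limma adjusted p = 0.817) was -0.07. All 4 measured globin genes, which include near-identical copies whose reads are uncertain to assign, had a higher I/R mean, with a summed level of 62.9 to 185 FPKM in I/R and 18.8 to 92.1 FPKM in sham libraries. Alas2, which marks red cell precursors, was not measured, and the part of blood content in the Eif2ak1 values was not tested.

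Eif2ak2 encodes PKR, the kinase that binds double-stranded RNA and halts translation in infected cells. It was at 11.9, 11.97 and 8.02 FPKM in I/R, against 8.18, 13.2 and 9.58 FPKM in sham libraries. The highest and the second lowest value were both in sham, and the lowest was in I/R. Its log2 fold change was 0.04 ± 0.25 (SE; 95% interval -0.57 to 0.65; limma adjusted p = 0.965), and it turned to -0.10 after median-ratio scaling and to -0.03 after quantile normalization. Of 20 interferon-induced genes 19 were measured, 6 with a higher and 13 with a lower I/R mean, and 0 passed in either direction. Their median log2 fold change was -0.14, against 0.12 over all genes. Ifit1, which binds foreign RNA caps, was at 1.42 FPKM in I/R replicate 7, at 5e-06 in I/R replicate 6 and listed at 0 in I/R replicate 9, against 4.67, 1.52 and 5.85 FPKM in sham libraries (limma adjusted p = 0.484). Stat2 and Irf7, factors of the interferon response, had log2 fold changes of -0.51 and -0.42 (limma adjusted p = 0.713 and 0.690), which were -0.22 and -0.12 without sham replicate 3.

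Eif2ak4 encodes GCN2, the amino acid sensor. Its values were 0.824, 1.34 and 1.11 FPKM in I/R and 1.93, 0.0895 and 1.12 FPKM in sham libraries. Both the highest and the lowest value were in sham. Its log2 fold change was 0.14 ± 0.39 (SE; 95% interval -0.79 to 1.07; limma adjusted p = 0.914), and without sham replicate 3 it was -0.26. The ratio of group means was 1.04. With a pseudocount of 0.1 the log2 fold change was 0.59, a setting that gives more weight to the very low sham replicate 3. Its listed transcript, Eif2ak4-201, is 1 of 8 annotated in GENCODE M21, 7 of which are protein-coding.

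**Figure D3:**
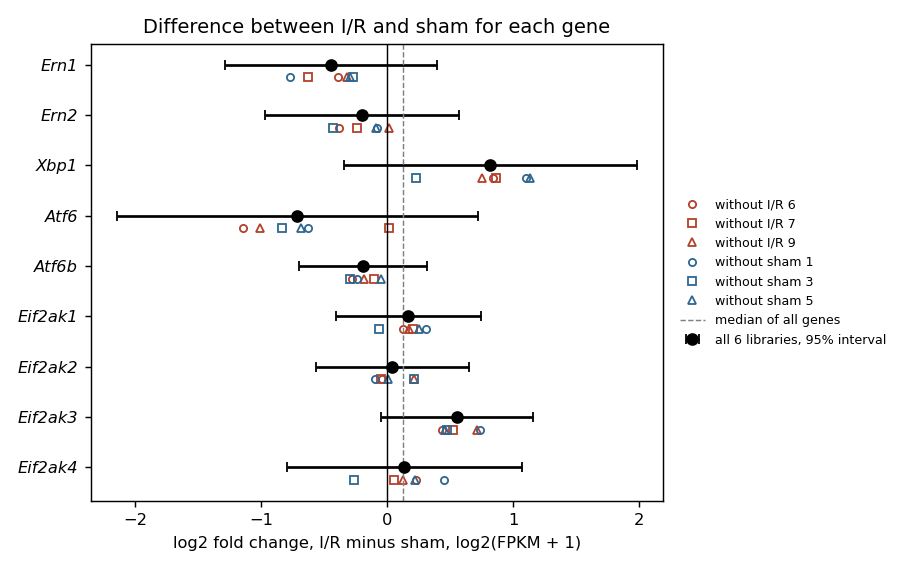
Log2 fold change in I/R relative to sham, as a difference of mean log2(FPKM + 1) (x axis), for each gene, with the 95% interval of the limma fit on all 6 libraries (black) and the value with each library left out (open symbols), the dashed line marking the median of all genes. Every interval includes 0. The value for Atf6 moves to 0.01 without I/R replicate 7, and that for Xbp1 to 0.23 without sham replicate 3.

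As shares of the 4 kinases' summed FPKM, Eif2ak3 held 30.2%, 28.4% and 25.1% in I/R, against 24.95%, 20.8% and 18.1% in sham libraries. The groups did not overlap, but I/R replicate 9 and sham replicate 1 differed by little. The mean share was 27.9 ± 2.63% in I/R and 21.3 ± 3.46% in sham libraries (SD, n = 3 each). This difference of 6.62 percentage points had an exact permutation p of 0.1 and an adjusted p of 0.4 over the 4 kinases, and it was 5.03 to 8.46 with single libraries left out. The share of Eif2ak1 spanned 37.9% to 47.4% in I/R libraries, against 33.7% to 48.9% in sham libraries, and Eif2ak2 held 24.2% to 30.3% in I/R libraries, against 22.4% to 45.2% in sham libraries. Eif2ak4 held at most 5.28% in any library. These 3 shares overlapped between groups (exact permutation p of 0.8 to 0.9). The ratio of Eif2ak3 to Eif2ak4 was 15.5, 8.32 and 7.48 in I/R and 4.72, 67.7 and 5.23 in sham libraries. Sham replicate 3, with its low Eif2ak4, set the sham mean, and the log2 difference of -0.26 (exact permutation p = 1) was 0.99 without that library.

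**Figure D4:**
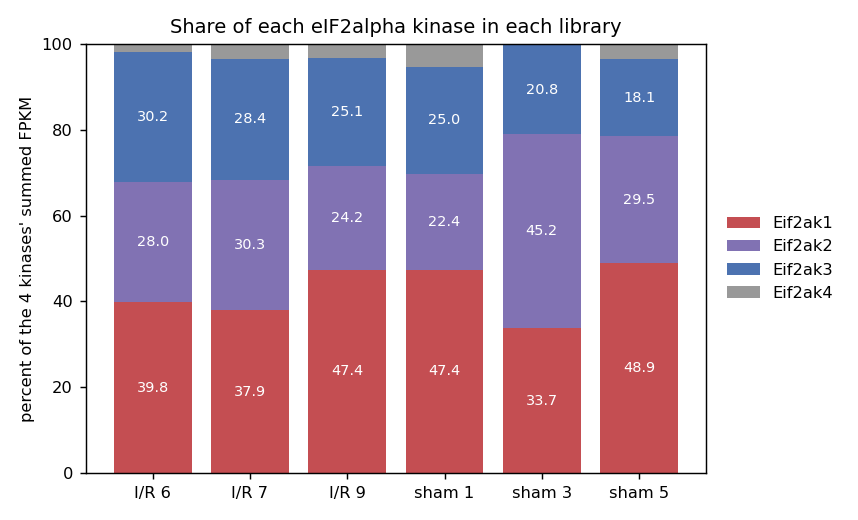
Share of each eIF2alpha kinase in the summed FPKM of the 4 kinases (y axis, percent) in each library, I/R replicates on the left and sham replicates on the right. The Eif2ak3 band (blue) takes 25.1% to 30.2% of the I/R bars and 18.1% to 24.95% of the sham bars, and the Eif2ak2 band (purple) is widest in sham replicate 3 (45.2%).

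The substrate of the kinases had a larger log2 fold change than any of the 9 genes. Eif2s1, which encodes eIF2alpha itself, was at 20.2, 20.1 and 20.6 FPKM in replicates 6, 7 and 9 of the I/R group, against 7.55, 9.73 and 7.94 FPKM in sham replicates 1, 3 and 5. The I/R libraries were nearly equal and all were more than the highest sham library. The mean was 20.3 ± 0.224 FPKM in I/R and 8.41 ± 1.16 FPKM in sham libraries (SD, n = 3 each). The log2 fold change, 1.19 ± 0.17 (SE), missed the threshold over all genes (unadjusted limma p = 0.000307; limma adjusted p = 0.137; exact permutation p = 0.1). With single libraries left out it ran from 1.12 to 1.29, and over all alternatives the limma adjusted p was 0.0926 to 0.403.

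A list of 13 genes held eIF2, its exchange factor eIF2B, the phosphatase that undoes the kinases, and also Eif5 and Eif2a. In this list 11 of 13 genes had a higher and 2 a lower I/R mean, and 0 passed in either direction. Groups were apart upward in 6 of the 13 and downward in 0, against 10.6% and 5.89% of all genes, and the median log2 fold change was 0.23 against 0.12. Eif2b4, the delta subunit of eIF2B, was at 13.5, 11.1 and 13.1 FPKM in I/R and 8.31, 7.31 and 8.87 FPKM in sham libraries (log2 fold change 0.57 ± 0.18 (SE), limma adjusted p = 0.516). Eif2b3, the gamma subunit, was at 5.21, 3.93 and 5.69 FPKM in I/R and 3.30, 0.216 and 2.13 FPKM in sham libraries (limma adjusted p = 0.543). These exchange factor subunits were apart between groups, as were Eif2b2 and Eif2s3x with smaller differences. The counts of genes apart are for unscaled values, and Eif2b2 and Eif2s3x overlapped after median-ratio scaling.

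Eif5, the activator of the eIF2 GTPase, was at 97.4, 95.03 and 95.8 FPKM in I/R, against 73.0, 56.4 and 66.3 FPKM in sham libraries (log2 fold change 0.56 ± 0.16 (SE), limma adjusted p = 0.484). The gamma subunit gene Eif2s3x was at 29.5 to 32.8 FPKM in I/R and 19.8 to 28.9 FPKM in sham libraries. Eif2s2, the beta subunit, overlapped, at 73.9 to 114 FPKM in I/R and 80.8 to 125 FPKM in sham libraries. The phosphatase subunit gene Ppp1r15a (GADD34), which stress induces to restore translation, was at 8.11, 12.6 and 3.71 FPKM in I/R and 6.21, 5.02 and 4.98 FPKM in sham libraries. I/R replicate 9 was below all sham libraries there, and the other I/R libraries were above them. Eif2a, also in the list, encodes a separate initiation factor despite its name.

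**Figure D5:**
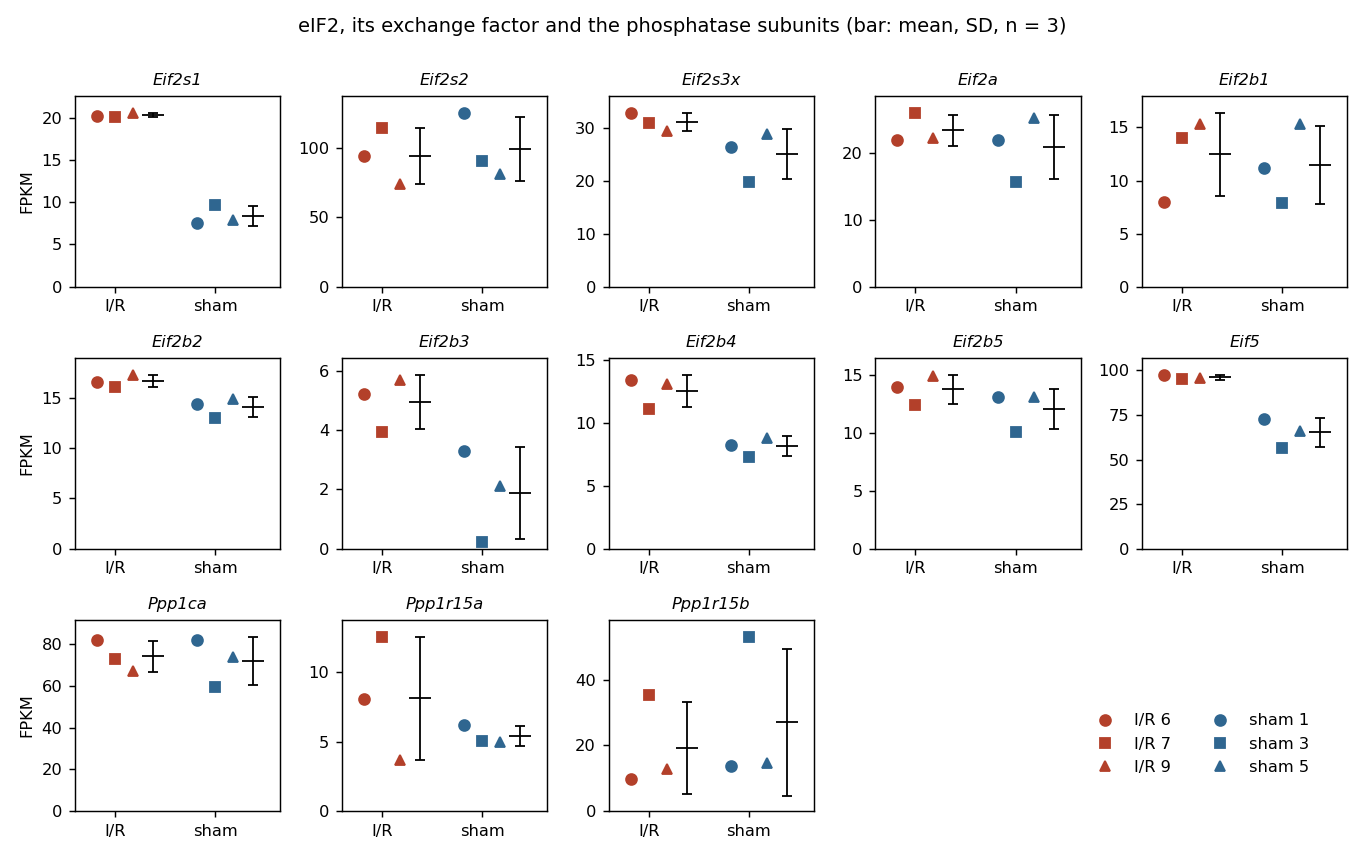
FPKM (y axis, from 0) of the 13 genes of eIF2, eIF2B, Eif5, Eif2a and the eIF2alpha phosphatase. The 3 I/R libraries are red (left) and the 3 sham libraries blue (right), with the mean and SD (black bar, n = 3). For Eif2s1 the I/R points (20.1 to 20.6 FPKM) lie far above the sham points (7.55 to 9.73 FPKM), while Eif2s2 and Ppp1r15a overlap.

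Proteins that switch the kinases on or off had a higher I/R mean in 10 of 12 genes, with 0 passed in either direction, a median log2 fold change of 0.29 against 0.12 over all genes, and 3 genes apart upward against 10.6% of all genes. Hsp90aa1, a cytosolic chaperone that holds client kinases such as HRI and PKR, was at 91.1, 110 and 86.9 FPKM in I/R, against 63.9, 37.97 and 56.96 FPKM in sham libraries (limma adjusted p = 0.471). Npm1, a nucleolar protein known to bind PKR, was at 195 to 215 FPKM in I/R and 99.0 to 148 FPKM in sham libraries, and Hspa8 at 260 to 299 FPKM in I/R and 218 to 224 FPKM in sham libraries. The log2 fold change of Hspa8 was 0.34, with 0.19 after median-ratio scaling and 0.070 with the main transcript only. The count of genes apart is for unscaled values, and the groups of Hspa8 overlapped after median-ratio scaling. Prkra, an activator of PKR, overlapped between groups (log2 fold change 0.39, limma adjusted p = 0.650; 0.26 to 0.65 with single libraries left out).

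Partners of IRE1 had a higher I/R mean in 9 of 13 genes, 0 past the threshold in either direction and a median log2 fold change of 0.13. Groups were apart upward in 2 of the 13 and downward in 0, against 10.6% and 5.89% of all genes. Hspa5 (BiP), the chaperone that holds the sensors silent, was apart upward (log2 fold change 0.85 ± 0.27 (SE), limma adjusted p = 0.505), as was Bax (0.18 ± 0.15 (SE), limma adjusted p = 0.694; 0.11 without sham replicate 3). For Bax the value was 0.038 after median-ratio scaling, and its groups then overlapped. Bloc1s1, whose RNA IRE1 is known to cut, was at 29.9, 59.1 and 56.3 FPKM in I/R and 67.9, 57.7 and 54.0 FPKM in sham libraries. Ptpn1, a phosphatase of the ER surface, had a log2 fold change of 0.71 with overlapping groups, with 0.32 when sham replicate 5 was left out and 0.42 when I/R replicate 9 was.

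Known targets of the ER sensors were read next. Of 14 XBP1 targets 10 had a higher I/R mean, 0 passed in either direction, and the median log2 fold change was 0.15, close to the 0.12 of all genes. Ssr3, a subunit of the translocon-associated complex, was at 85.6, 96.1 and 90.7 FPKM in I/R and 67.7, 55.3 and 75.2 FPKM in sham libraries (limma adjusted p = 0.541). It was the only XBP1 target whose groups were apart, 1 of 14, against 10.6% of all genes apart upward. The groups of Ssr3 overlapped after median-ratio scaling (log2 fold change then 0.32). Serp1, Srp19 and Sec61g (log2 fold changes 0.34 to 0.44) overlapped without scaling. Without sham replicate 3 the value was 0.15 for Serp1 and 0.084 for Srp19, and without I/R replicate 7 it was 0.13 for Sec61g. Dnajb9 and Edem1, the targets most tied to spliced XBP1, had log2 fold changes of 0.09 and -0.25.

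Of 11 ATF6 targets 10 had a higher I/R mean and 0 passed in either direction. Their median log2 fold change was 0.53, against 0.12 over all genes, and 4 were apart upward, against 10.6% of all genes. These were Herpud1, Hspa5, Creld2 and Hyou1, with log2 fold changes of 0.54 to 1.07. This count is for unscaled values, and the groups of Creld2 overlapped after median-ratio scaling. Herpud1, which helps remove misfolded ER proteins, was at 125, 70.7 and 140 FPKM in I/R, against 44.0, 57.2 and 51.1 FPKM in sham libraries (limma adjusted p = 0.471). The 11 ATF6 targets summed to 1058 to 1284 FPKM in I/R and 723 to 866 FPKM in sham libraries. Atf6 and Atf6b themselves had a lower I/R mean in the same libraries, as given above.

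The proteases that cut ATF6 and the related ER-anchored factors had a median log2 fold change of -0.07, with 4 of 10 genes higher and 6 lower in I/R, 0 passed and 0 apart. Creb3l2, a relative of ATF6 in secretory cells, was at 3.45, 3.53 and 1.20 FPKM in I/R and 3.16, 12.7 and 8.11 FPKM in sham libraries (limma adjusted p = 0.563). Creb3, Creb3l1 and Creb3l4 had log2 fold changes from -0.57 to -0.21, and with single libraries left out they spanned -1.06 to -0.33, -0.41 to 0.0081 and -0.84 to -0.20. Mbtps1, the site-1 protease, was at 10.1 to 16.7 FPKM in I/R and 12.8 to 16.5 FPKM in sham libraries.

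Phosphorylated eIF2alpha is known to favour translation of ATF4, a factor for amino acid and stress genes. Of 16 genes of the ATF4 and CHOP branch 15 were measured, 4 with a higher and 11 with a lower I/R mean. None of the 14 tested passed in either direction, 3 were apart downward and 0 upward, against 5.89% and 10.6% of all genes, and the median log2 fold change was -0.17 against 0.12. Chac1, a glutathione-degrading enzyme, was at 4.30, 1.46 and 3.16 FPKM in I/R, against 26.2, 22.9 and 23.3 FPKM in sham libraries (limma adjusted p = 0.0944). Trib3 and Sesn2, also targets of ATF4, were apart downward with log2 fold changes of -1.16 and -0.62. Atf4 itself was at 181 FPKM in I/R replicate 6, 31.5 FPKM in I/R replicate 7 and 46.9 FPKM in I/R replicate 9, against 166 to 220 FPKM in sham libraries.

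Likeness of pattern was measured as the root mean square difference of log2(FPKM + 1) deviations over the 6 libraries, among 88 pathway genes of at least 5 FPKM. It favours genes of small spread and says nothing of shared control. Eif2ak1 lay nearest to Nucb1 (0.089) and Pdia5 (0.090), against its own spread of 0.254, and Nucb1 was also nearest to Eif2ak4 (0.213 against 0.439). These genes shared the low value in sham replicate 3. Eif2ak3 lay nearest to Impact (0.143 against 0.371), an inhibitor of GCN2, and Atf6b to Creb3l1 (0.153 against 0.203). Xbp1 lay nearest to Srp19 (0.367 against 0.724), Atf6 to Sec61a1 (0.430 against 0.820), Ern1 to Asns (0.311 against 0.438) and Ern2 to Ppp1ca (0.228 against 0.344). Eif2ak2 had no near neighbour, as its nearest gene, Hspa8, was as far away (0.260) as its own spread (0.254).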

How the data were processed

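Trizol RNA of small intestine went into a stranded kit (random primers, dUTP). The authors computed FPKM per Ensembl transcript. The submitters' processing notes name cutadapt, HISAT2 2.0.4, StringTie and the build mm10, while the annotation release was not given in the sources used here. In all, the deposited table lists 19763 transcripts, each with a mean of at least 0.5 FPKM in I/R or sham as tested on the values. Of these, 19702 matched GENCODE M21 (GRCm38, the mm10 assembly) without version, and FPKM were summed per gene. Some exact zeros may be failed estimates.

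The I/R group was set against sham in limma 3.58.1 (R 4.3.3; eBayes with trend, group as the sole term, 2-sided) on log2(FPKM + 1), keeping genes that averaged at least 0.5 FPKM, with Benjamini-Hochberg adjustment over all 12006 genes. Single values had exact permutation tests (scipy 1.17.1). The procedure was tested on simulated data. Alternatives were other pseudocounts, filters and scalings, no trend, the main transcript only, and each library left out. Members and lists were chosen with earlier results of these data known. Named genes are the members and, per list, up to 4 genes by smallest p, plus the genes nearest to each member in pattern. Further genes named (Jchain, Mzb1, Atoh1, Alas2, Eif2b2, Eif2s2, Eif2s3x, Eif2a, Ppp1r15a, Dnajb9, Edem1 and Mbtps1) were chosen after their values were seen.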

Additional observations from a re-analysis of the deposited data

How the results depend on the processing

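Over 14 alternatives, 0 of 123 member log2 fold changes passed the adjusted threshold (lowest limma adjusted p 0.322, for Eif2ak3 without sham replicate 1). Other filters and the fit without trend cannot change a log2 fold change, nor can the main transcript alone for genes with 1 listed transcript. Ern1, Ern2 and Eif2ak4 fall under a minimum mean of 5 FPKM, and that filter gave them no value. With these settings counted, Xbp1, Atf6b and Eif2ak3 kept their sign in all 14, and Ern1 in the 13 that gave it a value. Of the others, Eif2ak2 was -0.095 after median-ratio scaling and -0.027 after quantile normalization, and Eif2ak4 was -0.011 after quantile normalization and 0.59 with a pseudocount of 0.1. With single libraries left out, the log2 fold change ran from -0.43 to 0.017 for Ern2, -1.14 to 0.012 for Atf6, -0.066 to 0.31 for Eif2ak1, -0.10 to 0.22 for Eif2ak2 and -0.26 to 0.45 for Eif2ak4. For Creb3l1 it ran from -0.41 to 0.0081. Xbp1-203 was 0.018 with a pseudocount of 0.1 and ran from -0.40 to 0.21 with single libraries left out.

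Differences within a library ran, with single libraries left out, from -0.28 to 1.02 for Ern2/Ern1, -0.13 to 1.14 for Atf6b/Atf6 and -0.93 to 0.99 for Eif2ak3/Eif2ak4 on the log2 scale, and in percentage points from -6.49 to 1.13 for the Eif2ak1 share, -9.82 to 1.58 for the Eif2ak2 share and -1.47 to 1.02 for the Eif2ak4 share. The main transcript alone could not change these differences, since each gene in them has 1 listed transcript. The same holds for the log2 fold changes of the 8 members with 1 listed transcript. Among the members only Xbp1 could change, and its log2 fold change was 0.80 with the main transcript alone, against 0.82 in the main fit.

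Members apart between groups numbered 1 upward and 0 downward, against 10.6% and 5.89% of all genes. The members apart were 0 and 2 after median-ratio scaling (Atf6 and Atf6b lower), and 1 and 1 after quantile normalization (Xbp1 higher, Atf6b lower). With single libraries left out they numbered 1 to 2 upward and 0 to 1 downward. Eif2ak3 was added upward without I/R replicate 9 or sham replicate 1. Ern1 was added downward without sham replicate 1, and Ern2 without sham replicate 3. Each gene so added had lost a library that made its groups overlap, so these additions were bound to occur. The share of all genes apart is not given under these other settings, so their counts have no background. Over all genes, limma called 2 higher and 2 lower at the adjusted threshold. The higher count was 0 after median-ratio scaling, 1 after quantile normalization and 1 with the main transcript, and the lower count was 1 with a minimum mean of 5 FPKM. With single libraries left out the counts ran from 0 to 4 higher and 0 to 5 lower, both highest without I/R replicate 9. By unadjusted limma p, 667 genes were higher and 406 lower. The cause of these changes was not tested. No paired analysis was possible because the groups share no replicate number. Without read counts, depth sets no stated limit, and 3 samples a group limit the precision.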
